A study of Homo sapiens with 3 samples.

Results

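The 10 genes described here are targets of the transcription factor p53, most of which hold the cell cycle or act back on p53: CDKN1A, BTG2, PLK3, GADD45A, MDM2, PPM1D, CCNG1, ZMAT3, SESN1 and SESN2. They were taken by name from the probe annotation of the arrays, and account for 10 of 18611 named genes, 16 of 41000 probes and 34 of 43376 spots that carry gene probes. In cells with DNA damage, kinases of the damage response keep p53 from being degraded, and the protein then binds paired half-sites in DNA near its target genes. Some of these targets stop the cell cycle, some repair or remove damaged cells, and others, above all MDM2, lower p53 again in a negative feedback. SW48, the parent of the cells studied, is a colon cancer line.

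RNA was measured in YB5 cells, which were cloned from SW48. They carry 1 GFP reporter, whose CMV promoter is methylated and inactive. Cells received 25 nM decitabine, an inhibitor of DNA methyltransferases that is built into DNA, or 20 μM carboplatin, which crosslinks DNA, or both drugs at these concentrations, in 4 daily doses from day 1 to day 4, with harvest on day 6. The carboplatin concentration is that of the labels and of a figure legend of the study, whose results text gives a higher one. Control cells received the solvent DMSO, although the sample titles and the study call them untreated. Each treatment was measured on 1 dual-colour Agilent array, with RNA of treated cells in Cy3 and RNA of control cells in Cy5 on all 3 arrays. The dyes were not exchanged, so that a preference of a probe for 1 dye is part of every change and cancels only in the difference between arrays. With 1 array per treatment no replicate error exists and no test was made. In bulk RNA, fewer cells with a transcript and less of the transcript per cell cannot be told apart.

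Arrays are named by their labels, and the array of both drugs is also called the combination array. The words with decitabine, with carboplatin and with both drugs refer to these labels. The supplementary lists of the study place PLK3, ZMAT3 and GADD45A among genes changed by carboplatin, whereas all of them changed more on the array labelled decitabine than on the array labelled carboplatin, and no array was reassigned. The same lists place CCNA2, CCNB2, CDC20, TOP2A and CDKN1B among genes lowered by carboplatin. By flow cytometry the study reports a cell cycle arrest with carboplatin, given at a higher concentration than that of the labels. For decitabine at its low concentration it reports no effect on the cell cycle. Among genes with promoter methylation data, the study counts more changed by carboplatin than by decitabine. In the values computed here, TOP2A changed by -0.79, -0.32 and -0.94 on the log2 scale on the decitabine, carboplatin and combination arrays. CCNB2 changed by -1.30, -0.17 and -1.47 and CDC20 by -1.001, -0.13 and -1.31. CDKN1B, at -1.54, -0.79 and -1.66, was lower by more than 1.5-fold on the array labelled carboplatin too. CCNA2, whose brightest probe lies in the first 9 columns of spots, changed by -0.47, -0.36 and -1.08, and by -0.87, -0.35 and -1.07 with these columns left out. Over all named genes, a larger set than that of the study, 514 were higher and 278 lower at 1.5-fold on the array labelled carboplatin. On that labelled decitabine the numbers were 1971 and 870. With these columns left out the numbers were 479 and 250 against 887 and 856. Every direction given for a single drug rests on these labels. The median signal of the control channel was 297, 315 and 282 units on the decitabine, carboplatin and combination arrays, and that of the treated channel was 166, 163 and 167 units. All 34 spots of the 10 genes were well above background in both channels on every array, and 0 were saturated. On the array labelled decitabine the first 9 columns of spots stood apart, with a median change of 0.75 on the log2 scale against -0.02 in the other columns. Only 2 of the 34 spots lie there, 1 of CDKN1A and 1 of MDM2, and the scanner software marked both as outliers on that array, so that neither entered its values. The SD of the log2 change among 264 probes spotted 10 times, with these columns left out, was 0.0776, 0.0748 and 0.0757 on the 3 arrays. This SD covers technical error within an array alone.

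YB5 carried the markers of an epithelial line. The control channel was above background on all 3 arrays for 7 of 9 epithelial and intestinal markers, among them CDH1, EPCAM, KRT8, KRT18, KRT19, VIL1 and CDX2. KRT20 was above background on 1 array and CDX1 on none. Of 6 markers of other cell types, PTPRC, PECAM1, COL1A2 and DES were above background on no array, while CD3E and COL1A1 were above it in the control channel of all 3.

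The 10 genes were higher in treated cells on both arrays whose labels include decitabine, and changed less on the array labelled carboplatin. All 10 were at least 1.5-fold higher on the array labelled decitabine, where 10.6 % of all genes were (5.08 % with the first 9 columns left out). On the array labelled carboplatin 4 of 10 reached 1.5-fold, against 2.76 % of all genes (2.74 % with these columns left out), and these were CDKN1A, PLK3, MDM2 and ZMAT3. There the count was 1 (PLK3) under median centring, and 3 in the authors' values and by the median over probes. With both drugs 9 of 10 reached 1.5-fold, against 7.47 % of all genes (7.39 % with these columns left out), and CCNG1 was the exception. None of the 10 was lower by 1.5-fold on any array. Their median change was 2.07, 0.39 and 1.81 on the log2 scale on the decitabine, carboplatin and combination arrays, and the median over all genes was 0.01, -0.01 and 0.00. Of the 16 probes, 15 were at least 2-fold higher with decitabine, 2 with carboplatin and 14 with both drugs. A 4-fold difference was passed by 10, 0 and 8 probes in the same order. Of 29374 probes of all named genes, 6.01, 0.449 and 2.13 % were at least 2-fold higher on the 3 arrays (1.45, 0.473 and 2.13 % with the first 9 columns left out), and 0.565, 0.0681 and 0.317 % at least 4-fold (0.25, 0.0757 and 0.337 % with these columns left out).

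**Figure D1:**
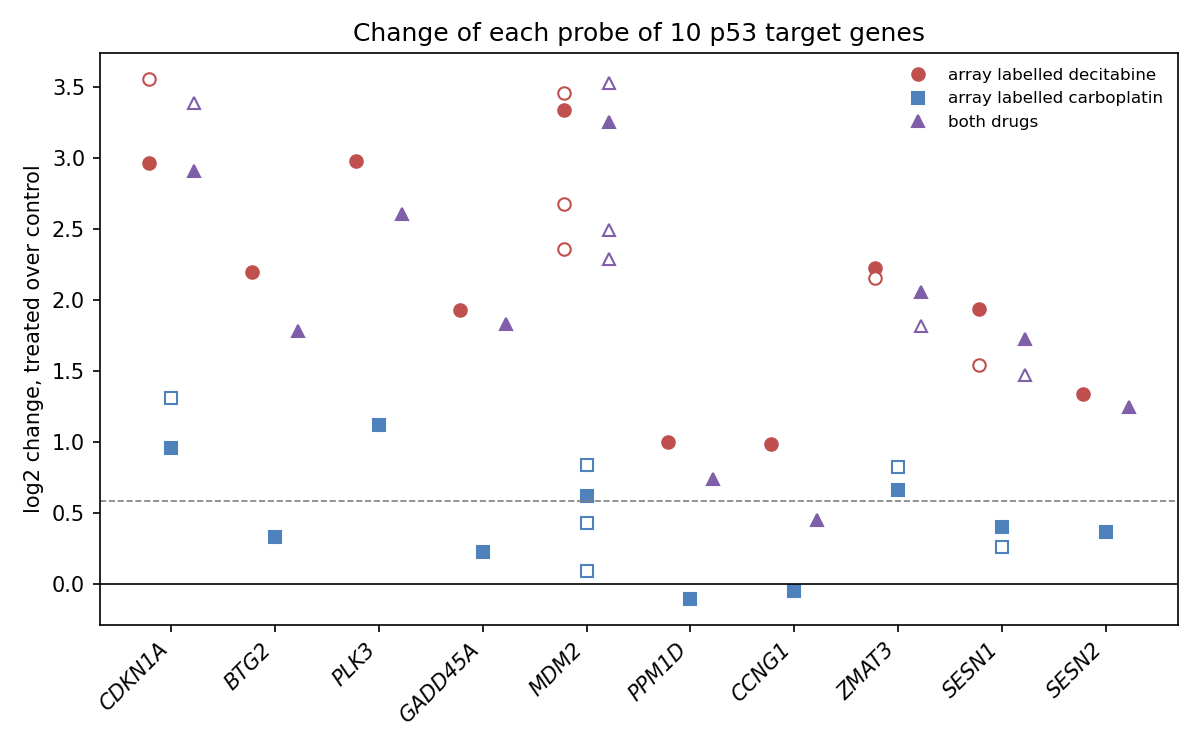
Log2 change of treated over control cells for each of the 16 probes of the 10 genes, by array (circles, labelled decitabine; squares, labelled carboplatin; triangles, both drugs). Filled points are the brightest probe of a gene, open points its other probes, and the dashed line marks 1.5-fold. The squares lie below the circles and triangles for every gene, with all squares between -0.10 and 1.31.

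The promoters of these genes were searched for the p53 consensus site, since the genes moved together. RefSeq gives 16 promoter windows for 9 of the genes on the GRCh38.p14 assembly, each from 250 bases before to 50 bases after a transcript start. A match needed both half-sites of 10 bases, at most 13 bases apart and with at most 2 mismatches over the 20 bases. The consensus is its own reverse complement, so that a match counts for both strands. Such a match was found in 5 of the 16 windows, which belong to MDM2, CCNG1 and SESN1, and in 7.82 % of all 35116 windows. Windows of a gene can overlap, and the 5 windows hold 3 distinct matches, 1 for each of 3 of the 9 genes, while 9.53 % of 27305 genes had a match in any window. A match without a spacer was found in MDM2, and in 0.649 % of all windows. These matches are printed 5′ to 3′ on the strand of the gene, with the half-sites in capitals. The MDM2 match, in chr12:68808903-68808962, lies 94 to 75 bases before a start inside the gene. The CCNG1 match, in chr5:163437509-163437570, has a spacer of 9 bases and lies 42 to 14 bases before a start. The SESN1 match, on the minus strand in chr6:109095038-109095096, has a spacer of 11 bases and lies 242 to 212 bases before the most upstream start of the gene.
MDM2: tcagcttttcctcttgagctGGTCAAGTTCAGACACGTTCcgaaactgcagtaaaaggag
CCNG1: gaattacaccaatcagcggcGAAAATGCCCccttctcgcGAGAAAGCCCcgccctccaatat
SESN1: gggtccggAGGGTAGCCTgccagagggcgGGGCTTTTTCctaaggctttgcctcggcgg
The 3 genes with a match differed widely in their change on the array labelled decitabine, from 0.99 for CCNG1 to 3.34 for MDM2. The windows held many CG pairs, between 18 and 39 in 15 of the 16 and 2 in the other, a window of ZMAT3, while the median over all windows was 14. At least 18 CG pairs, a limit taken from these 16 windows themselves, were found in 44.5 % of all windows. The windows cover promoters only, and sites farther away were not searched.

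CDKN1A encodes p21, the inhibitor of cyclin-dependent kinases through which p53 stops cells before S phase. Its brightest probe (A_23_P59210, GRCh37 chr6:36654706-36654765) read 13.39, 12.002 and 12.97 log2 units in the control channel of the decitabine, carboplatin and combination arrays, and 16.36, 12.97 and 15.88 units in the treated channel. The treated channel was thus far above every control channel on both arrays whose labels include decitabine, and on the array labelled carboplatin it lay below the decitabine array's control channel. Within arrays the changes were 2.97, 0.96 and 2.91, or 7.82-fold, 1.95-fold and 7.51-fold. The second probe (A_24_P89457, GRCh37 chr6:36652178-36652237) lies before the first in the gene and gave larger changes of 3.56, 1.31 and 3.39. Its sequence is printed because it reads another stretch of the CDKN1A RNA than the brightest probe.
A_24_P89457: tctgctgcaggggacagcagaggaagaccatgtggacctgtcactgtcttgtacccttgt
Both probes gave the same order of arrays, decitabine above both drugs above carboplatin. For the brightest probe, decitabine and both drugs differed by less than the SD of repeated spots. Under median centring their order turned (2.32 against 2.34).

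The control channel of CDKN1A differed between the arrays, which bears on its change. Over the 9 spots of the brightest probe outside the first 9 columns, the control signal ran from 13750 to 20401 units (median 18414) on the array labelled decitabine. It ran from 5619 to 7013 units (median 6643) on the array labelled carboplatin, and from 9163 to 13567 units (median 12442) on the array of both drugs. The spots of the array labelled carboplatin did not overlap those of either other array. After scaling between arrays and with the first 9 columns left out, the control channels of CDKN1A spanned 1.30 log2 units, a range that 27 of 12605 genes reached. The median range over these genes was 0.11, and 0.746 % of them differed by 1.5-fold or more. The control channels of the other 9 genes spanned between 0.04 and 0.25. Whether the control channels hold the same RNA extract is not stated, and the part of this spread in the CDKN1A changes was not tested. Against the mean control channel of the 3 arrays the changes of CDKN1A were 3.57, 0.18 and 3.09, so that on the array labelled carboplatin it no longer reached 1.5-fold. On that array 3 of the 10 genes reached it when so computed. The repeated spots agree closely within an array, with changes of 2.97 ± 0.026, 0.97 ± 0.034 and 2.90 ± 0.067 (SD, n = 9 spots). The 1 spot of this probe in the first 9 columns gave 4.50, 0.91 and 2.99.

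**Figure D2:**
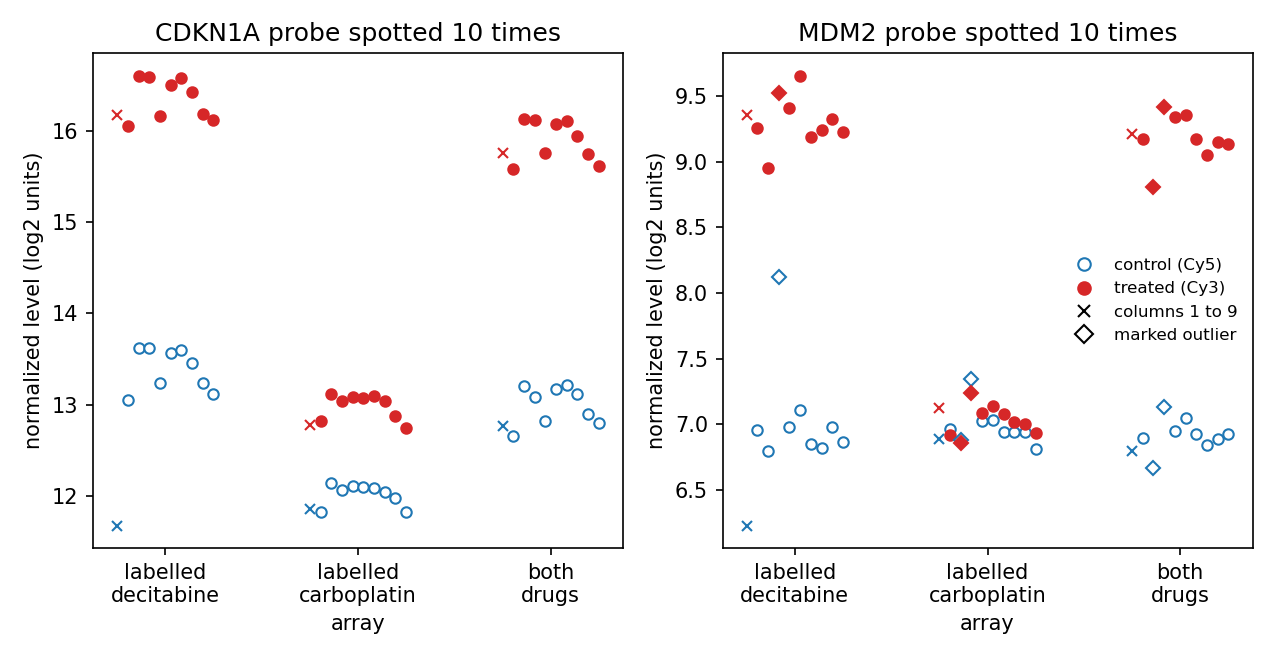
Normalized level (log2 units) of each spot of the CDKN1A and MDM2 probes that were spotted 10 times, by array, with control cells as open blue and treated cells as filled red symbols. Crosses are spots in columns 1 to 9 and diamonds are spots marked as outliers. The control spots of CDKN1A outside these columns lie between 11.82 and 12.14 on the array labelled carboplatin, and at 12.65 or above on the others. The means of those of MDM2, with spots marked as outliers left out, lie between 6.92 and 6.95.

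BTG2 is a member of the BTG/TOB family that slows proliferation. Its probe (GRCh37 chr1:203278454-203278513) read 12.38, 12.25 and 12.19 log2 units in the control channels and 14.58, 12.58 and 13.98 units in the treated channels. The control channels were close to each other, and the treated channels differed by array, giving changes of 2.20, 0.33 and 1.78 (4.60-fold, 1.26-fold and 3.44-fold).

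PLK3 is a stress-activated kinase of the polo family. Its probe (GRCh37 chr1:45271594-45271654) read 10.58, 10.31 and 10.49 log2 units in control cells and 13.56, 11.43 and 13.09 units in treated cells. By the brightest probes PLK3 had the largest change of the 10 genes on the array labelled carboplatin, although by the median over probes CDKN1A (1.14) was above it there. Its changes were 2.98, 1.12 and 2.60 (7.90-fold, 2.18-fold and 6.08-fold). It was the only one of the 10 whose brightest probe passed 2-fold there.

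GADD45A is a damage-induced protein that acts on stress kinases, on PCNA and on the G2 kinase CDK1. Its probe (GRCh37 chr1:68153371-68153430) read 12.47, 12.42 and 12.37 log2 units in control cells and 14.40, 12.65 and 14.21 units in treated cells. The change was 1.93 with decitabine and 1.83 with both drugs (3.81-fold and 3.56-fold) and 0.23 with carboplatin (1.17-fold).

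**Figure D3:**
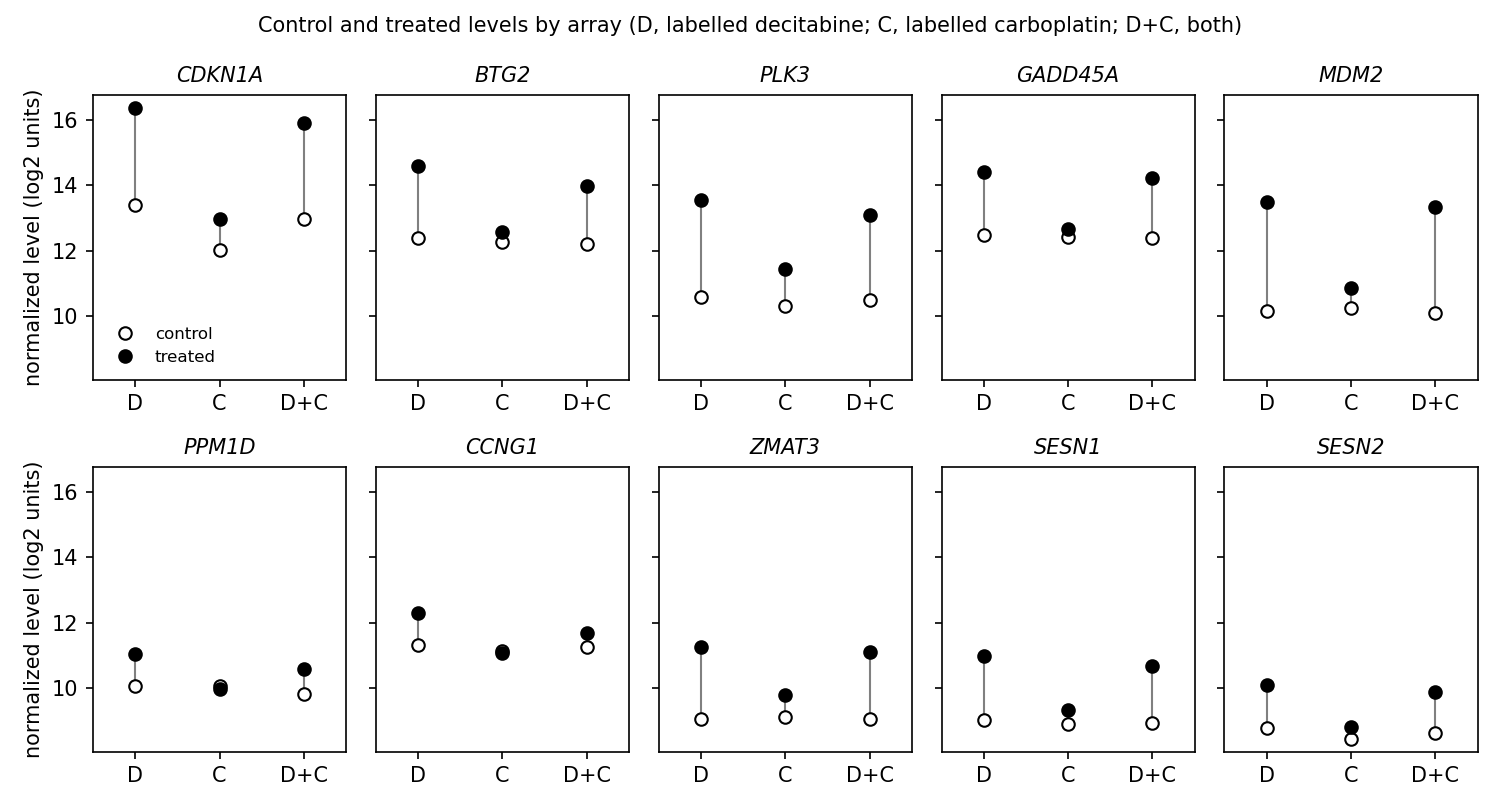
Normalized level (log2 units) of the brightest probe of each of the 10 genes in control cells (open) and treated cells (filled) on the decitabine (D), carboplatin (C) and combination (D+C) arrays. Control levels of each gene lie close together over the arrays except for CDKN1A, which runs from 12.002 to 13.39, and treated levels stand apart from them most on D and D+C.

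The feedback genes were MDM2, PPM1D and CCNG1. MDM2, the ubiquitin ligase that marks p53 for degradation, had the largest change of the 10 genes on the decitabine and combination arrays by the brightest probes. CDKN1A was above it on the array labelled decitabine in the authors' values (3.43 against 3.20), against the averaged control (3.57 against 3.33) and by the median over probes (3.26 against 3.01). By the median over probes it was also above it with both drugs (3.15 against 2.87). The brightest probe of MDM2 (A_23_P139895, GRCh37 chr12:69236129-69236188) read 10.16, 10.24 and 10.09 log2 units in control cells and 13.49, 10.86 and 13.34 units in treated cells. The changes of 3.34, 0.63 and 3.25 amount to 10.1-fold, 1.54-fold and 9.54-fold, and placed MDM2 at rank 10, 436 and 17 of 18611 genes ordered by change. MDM2 has 3 further probes. The one nearest to the 5′ end of the gene (A_23_P309545, GRCh37 chr12:69203012-69203071) gave 3.46, 0.84 and 3.53, and its sequence is printed because it reads a stretch of the MDM2 RNA far from the brightest probe.
A_23_P309545: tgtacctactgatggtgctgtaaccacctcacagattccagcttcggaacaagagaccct
The probe nearest to the 3′ end (A_24_P925664, chr12:69238891-69238950) gave 2.68, 0.43 and 2.49. The fourth probe (A_23_P502750, chr12:69233822-69233881) was spotted 10 times and gave 2.36 ± 0.11 (SD, n = 8 spots), 0.07 ± 0.061 and 2.27 ± 0.065 (n = 7 spots each), with the first 9 columns and spots marked as outliers left out. From the scanner's processed signals its changes were larger, at 3.37, 0.31 and 3.28. Its control levels were 6.92, 6.95 and 6.92 log2 units, and its treated signal on the array labelled carboplatin had a median of 101 units, against 56.3 units for the negative control spots of that channel. All 4 probes put MDM2 at least 4-fold higher on both arrays whose labels include decitabine, and 2 of the 4 reached 1.5-fold with carboplatin. Under median centring those 2, A_23_P139895 and A_23_P309545, gave 0.19 and 0.44 with carboplatin and did not reach it.

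PPM1D is the phosphatase WIP1, which removes activating phosphates from p53 and from the kinases of the damage response. Its probe (GRCh37 chr17:58741635-58741694) read 10.05, 10.08 and 9.83 log2 units in control cells and 11.05, 9.97 and 10.57 units in treated cells. The change was 1.00 with decitabine, -0.10 with carboplatin and 0.74 with both drugs (2.00-fold, 0.932-fold and 1.67-fold). CCNG1, cyclin G1, recruits a phosphatase to MDM2. Its probe (GRCh37 chr5:162871009-162871068) read 11.31, 11.13 and 11.24 log2 units in control cells and 12.30, 11.08 and 11.69 units in treated cells. CCNG1 changed by 0.99, -0.05 and 0.45 (1.99-fold, 0.968-fold and 1.37-fold). As reported, PPM1D and CCNG1 had the smallest changes of the 10 on each array. Under median centring neither reached 1.5-fold with decitabine (0.50 for PPM1D and 0.45 for CCNG1), and with both drugs PPM1D missed it under median centring (0.34), in the authors' values (0.53) and, narrowly, against the averaged control (0.58).

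ZMAT3 is a zinc finger protein that binds RNA. Its brightest probe (GRCh37 chr3:178738369-178738428) read 9.04, 9.12 and 9.05 log2 units in control cells and 11.26, 9.79 and 11.10 units in treated cells, giving changes of 2.22, 0.66 and 2.05 (4.67-fold, 1.58-fold and 4.15-fold). The second probe gave 2.16, 0.83 and 1.82. ZMAT3 thus passed 1.5-fold with carboplatin in both probes. Under median centring the brightest probe did not (0.32, or 0.47 relative to the median of all genes), whereas the second probe did (0.69). SESN1 and SESN2, the sestrins, restrain mTORC1 and act against oxidative stress. SESN1 (GRCh37 chr6:109308477-109308536) read 9.04, 8.91 and 8.94 log2 units in control cells and 10.97, 9.31 and 10.67 units in treated cells. Its changes were 1.94, 0.40 and 1.73 (3.82-fold, 1.32-fold and 3.31-fold), and those of its second probe were 1.54, 0.27 and 1.47. SESN2 (GRCh37 chr1:28608194-28608253) read 8.76, 8.44 and 8.64 log2 units in control cells and 10.10, 8.81 and 9.88 units in treated cells. Its changes were 1.34, 0.37 and 1.25 (2.53-fold, 1.29-fold and 2.37-fold), smaller than those of both SESN1 probes on the decitabine and combination arrays.

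Ordered by the change of the brightest probe on the array labelled decitabine, the 10 genes ran MDM2, PLK3, CDKN1A, ZMAT3, BTG2, SESN1, GADD45A, SESN2, PPM1D and CCNG1. Neighbours PLK3 and CDKN1A, ZMAT3 and BTG2, SESN1 and GADD45A, and PPM1D and CCNG1 differed by less than the SD of repeated spots. On the array of both drugs the order was MDM2, CDKN1A, PLK3, ZMAT3, GADD45A, BTG2, SESN1, SESN2, PPM1D and CCNG1, and GADD45A, BTG2 and SESN1 were each within that SD of their neighbour. On the array labelled carboplatin the order was PLK3, CDKN1A, ZMAT3, MDM2, SESN1, SESN2, BTG2, GADD45A, CCNG1 and PPM1D. There MDM2 was within that SD of ZMAT3, SESN2 of SESN1 and of BTG2, and PPM1D of CCNG1. The changes of CCNG1 and PPM1D with carboplatin were below 0 under every setting tried, those of BTG2 and GADD45A turned from 0.33 and 0.23 to -0.16 and -0.27 under median centring in place of loess, and the other 6 stayed above 0. Median centring moved the median of all genes to -0.14, -0.16 and -0.10 on the 3 arrays. Relative to that median, BTG2 and GADD45A stood at -0.01 and -0.12 on the array labelled carboplatin, and 9, 2 and 8 of the 10 genes were at least 1.5-fold higher on the 3 arrays.

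By its brightest probe none of the 10 genes was higher with both drugs than on the array labelled decitabine, except that under median centring CDKN1A, MDM2 and SESN2 were, by at most 0.02. Probe A_23_P309545 of MDM2 gave 3.53 with both drugs and 3.46 with decitabine, which as reported differ by less than the SD of repeated spots. They differed by more from processed signals (3.69 against 3.54) and the scanner's log ratio (3.66 against 3.51). The same held under median centring (3.09 against 2.93) and in the authors' values (3.47 against 3.36). The changes of the brightest probes with both drugs were below those on the array labelled decitabine for all 10, by between 0.06 for CDKN1A and 0.54 for CCNG1 on the log2 scale, with a median difference of -0.19. As reported none of the 10 differed by 1.5-fold, whereas 6.64 % of all genes were lower by that much and 1.72 % higher (0.321 % lower and 1.82 % higher with the first 9 columns left out). BTG2 was lower by that much from the scanner's processed signals (-0.59) and log ratio (-0.60), and against the averaged control BTG2 (-0.60) and CCNG1 (-0.61) were. Compared with the array labelled carboplatin, 9 of 10 were at least 1.5-fold higher with both drugs, against 4.21 % of all genes (4.15 % with the first 9 columns left out), and the median difference was 1.42. The difference between the arrays labelled decitabine and carboplatin was at least 1.5-fold for all 10, against 9.47 % of all genes (3.69 % with the first 9 columns left out), with a median of 1.63. A sum of the changes on both single-drug arrays was above the change with both drugs for every one of the 10 genes. The value with both drugs fell short of that sum by 1.5-fold or more for 6 of 10, against 7.55 % of all genes (1.35 % with the first 9 columns left out), namely PLK3 (-1.50), CDKN1A (-1.02), ZMAT3 (-0.83), BTG2 (-0.75), MDM2 (-0.71) and SESN1 (-0.61). In the authors' values CDKN1A (-0.55) did not reach that limit, and SESN1 did not from median signals (-0.58) or by the median over probes (-0.47). Under median centring 7 of 10 were below the sum and 1, PLK3, by 1.5-fold, whereas the count at 1.5-fold was between 5 and 7 from the other signals, in the authors' values and by the median over probes. As reported, the difference was -0.49 for CCNG1, -0.46 for SESN2, -0.32 for GADD45A and -0.16 for PPM1D. These differences rest on single arrays that differ in their control channels as described for CDKN1A, and a dye preference of a probe does not cancel in the comparison with the sum.

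By distance over the 3 changes, the genes nearest to CDKN1A among 11622 genes measured in both channels of every array and outside the first 9 columns were GRIN2C, PLK3, ARRDC4, HES2 and ZNF473CR. GRIN2C, a subunit of NMDA receptors, changed by 2.99, 0.75 and 3.02 and lay at a distance of 0.24. PLK3 followed at 0.34. ARRDC4, an arrestin domain protein, changed by 2.83, 0.65 and 2.86 (distance 0.35), and HES2, a basic helix-loop-helix protein, by 2.62, 0.88 and 2.70 (distance 0.41). ZNF473CR lay at 0.45 with changes of 2.94, 0.67 and 3.25. MDM2 was the gene at rank 7, at a distance of 0.61. The ranking changed with the values used, and in the authors' values and against the averaged control, where the change of CDKN1A with carboplatin was 0.16 and 0.18, MDM2 was the nearest gene (distances 0.62 and 0.58). Of the 5 genes, 2 were among the nearest 5 in the authors' values and between 3 and 5 under every other setting. By the median over probes GRIN2C and HES2 fell to ranks 64 and 129, at distances of 2.38 and 2.83.

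Upstream of the 10 genes, 9 regulators of p53 were measured. Of these, 2 were at least 1.5-fold higher and 1 lower on the array labelled decitabine, 0 higher and 1 lower with carboplatin, and 2 higher and 2 lower with both drugs. Of all genes, 10.6, 2.76 and 7.47 % were higher and 4.67, 1.49 and 5.93 % lower. The decitabine rises were of MDM4 and CHEK2, whose brightest probes lie in the first 9 columns, and 0 of 8 genes reached 1.5-fold upwards with these left out, against 5.08 % of all genes. CHEK1, a kinase of the damage response, changed by -0.66, 0.07 and -0.80, and RCHY1, which like MDM2 is a ubiquitin ligase for p53, by -0.41, -0.94 and -0.81. HIPK2, a p53 kinase, changed by -0.01, 0.56 and 0.60, and USP7, a deubiquitinase that acts on MDM2, by 0.18, 0.38 and 0.26.

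Other targets of p53 were also higher, most of them on both arrays whose labels include decitabine. Of 10 targets that act in apoptosis, 8, 4 and 7 were at least 1.5-fold higher on the decitabine, carboplatin and combination arrays and none was lower, while 10.6, 2.76 and 7.47 % of all genes were higher. Their medians were 1.55, 0.17 and 1.62, of which that with carboplatin was -0.19 under median centring, or -0.03 relative to the median of all genes. PMAIP1, which encodes NOXA, changed by 2.03, 0.61 and 1.71. PHLDA3, an inhibitor of AKT, changed by 2.31, 1.20 and 2.29. TP53I3 changed by 1.59, -0.10 and 1.53, and the death receptor TNFRSF10B by 0.94, 0.04 and 1.04. Of 10 targets of metabolism and repair, 10, 5 and 10 were higher, against the same shares of all genes, and none lower, with medians of 2.07, 0.59 and 1.80. These medians were 1.55, 0.52 and 1.58 with the first 9 columns left out. Under median centring that with carboplatin was 0.24, or 0.40 relative to the median of all genes. The secreted factor GDF15 had the largest change of this list at 4.96, 1.65 and 5.13. TP53INP1, an inducer of autophagy and cell death, changed by 2.38, 0.82 and 2.33. RRM2B, a subunit of ribonucleotide reductase, changed by 1.76, 0.50 and 1.94, and the repair protein XPC by 1.36, 0.65 and 1.57. With the first 9 columns left out, 7, 4 and 7 of 9 apoptosis targets and 7, 3 and 7 of 7 targets of metabolism and repair were higher, against 5.08, 2.74 and 7.39 % of all genes.

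Of 10 cyclins, kinases and partners of p21 in the cell cycle, 3, 1 and 2 were at least 1.5-fold higher on the 3 arrays, where 10.6, 2.76 and 7.47 % of all genes were, and none was lower. With the first 9 columns left out 2, 1 and 1 of 10 were higher, against 5.08, 2.74 and 7.39 % of all genes. CCND3, cyclin D3, whose brightest probe lies in these columns, changed by 1.78, 0.44 and 0.65 with them and by 0.28, 0.30 and 0.51 without. CCND1, cyclin D1, changed by 0.95, 0.65 and 0.93, and PCNA, the sliding clamp of DNA replication that p21 binds, by 0.68, -0.12 and 0.40. CCND2 changed by 0.27, 0.22 and 0.45 and CCNE2 by -0.20, -0.10 and -0.25. Of 16 genes of S phase and mitosis that are known to be repressed through p21, 9 were lower by 1.5-fold or more on the array labelled decitabine, where 4.67 % of all genes were, 0 with carboplatin (1.49 % of all genes) and 12 with both drugs (5.93 % of all genes). Their medians were -0.81, -0.02 and -0.92, and under median centring -1.24, -0.37 and -1.22 relative to the median of all genes. PLK1, a kinase of mitosis, changed by -1.51, -0.33 and -1.54, and CCNB1, cyclin B1, by -1.35, -0.39 and -1.52. CCNB2 changed by -1.30, -0.17 and -1.47, and CDC20, an activator of the anaphase-promoting complex, by -1.001, -0.13 and -1.31. The 1 gene of this list that was at least 1.5-fold higher with decitabine was FOXM1, whose probe lies in the first 9 columns. With these left out 10, 0 and 11 of 14 genes were lower by 1.5-fold or more, against 4.9, 1.43 and 5.82 % of all genes. The order of the single drugs in these counts rests on the array labels. It differs from the flow cytometry of the study, which reports cell cycle arrest with carboplatin and none with low decitabine. The cause of this difference was not tested.

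**Figure D4:**
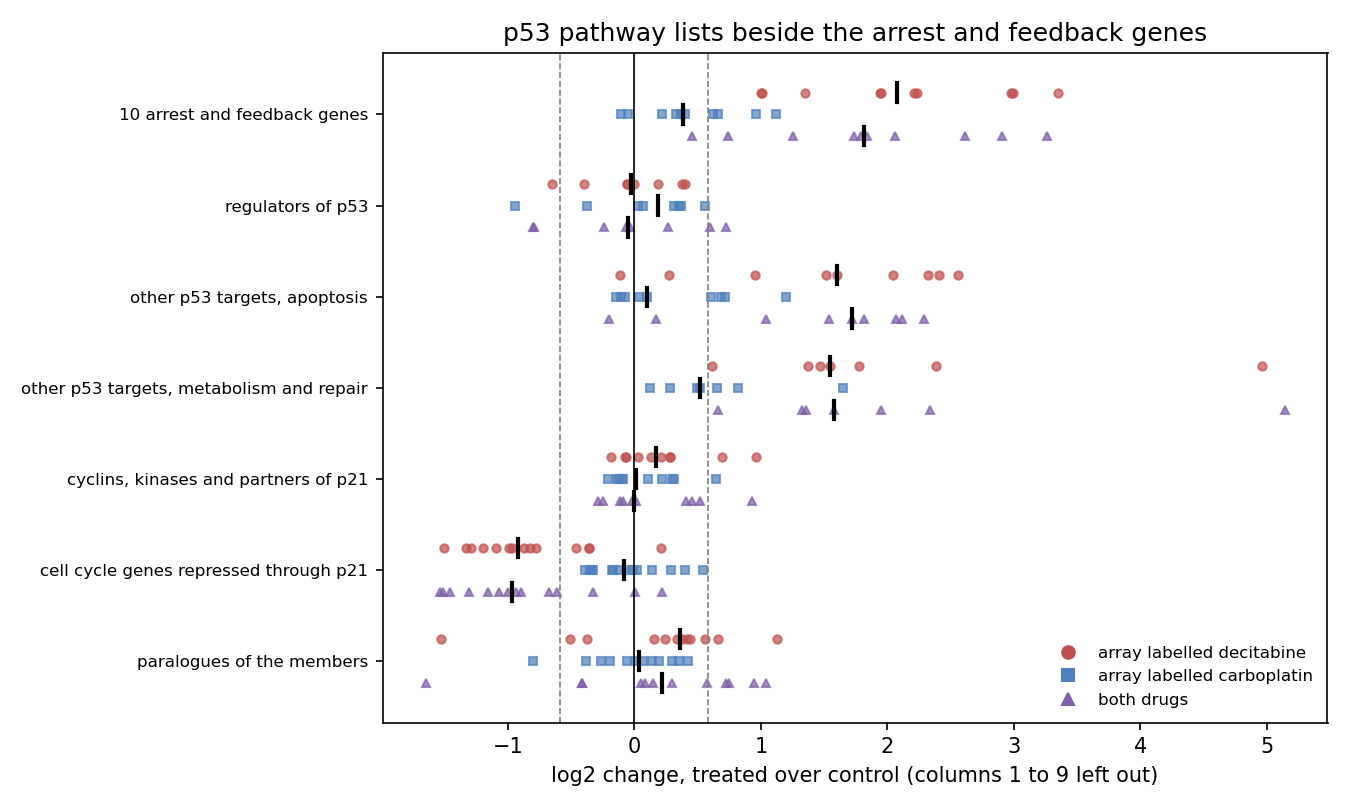
Log2 change of treated over control cells for the 10 genes and 6 further lists of the p53 pathway, by array (circles, labelled decitabine; squares, labelled carboplatin; triangles, both drugs), with the first 9 columns of spots left out. Each point is a gene, black bars are medians and dashed lines mark 1.5-fold. Medians of the 10 genes and of both lists of other targets lie above 1.5 log2 units on both arrays whose labels include decitabine, and that of the genes repressed through p21 lies at -0.92 and -0.97.

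Of 14 paralogues of the 10 genes, 4, 1 and 5 were at least 1.5-fold higher on the 3 arrays and 1 was lower on each. Of all genes 10.6, 2.76 and 7.47 % were higher and 4.67, 1.49 and 5.93 % lower. With the first 9 columns left out 2, 0 and 4 of the 12 paralogues still measured were higher, against 5.08, 2.74 and 7.39 % of all genes. Their medians were 0.36, 0.10 and 0.22, and under median centring they were -0.14, -0.29 and -0.03, or 0.00, -0.13 and 0.07 relative to the median of all genes. CDKN1B, the p27 paralogue of CDKN1A, was lower on every array, with changes of -1.54, -0.79 and -1.66. GADD45G changed by 1.11, 0.07 and 1.04, whereas GADD45B changed by -0.52, -0.05 and -0.42. BTG3 and TOB1, of the family of BTG2, changed by 0.65, 0.30 and 0.74 and by 0.55, 0.14 and 0.94.

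Of the 9 epithelial and intestinal markers, 3, 2 and 3 were at least 1.5-fold higher and 2, 0 and 1 lower on the decitabine, carboplatin and combination arrays, where 10.6, 2.76 and 7.47 % of all genes were higher and 4.67, 1.49 and 5.93 % lower. With the first 9 columns left out 2, 2 and 3 of 8 were higher, against 5.08, 2.74 and 7.39 % of all genes, and 2, 0 and 1 lower, against 4.9, 1.43 and 5.82 %. CDH1, which encodes E-cadherin, changed by -0.88, 0.02 and -0.86 with these columns left out. KRT18 changed by 0.83, 0.50 and 1.14 and KRT19 by -0.01, 0.71 and 0.85. VIL1, which encodes villin of the microvilli, changed by -0.88 with decitabine, 1.87 with carboplatin and 0.19 with both drugs, while CDX2 changed by -0.03, 0.32 and -0.05. Of the other cell types, the medians of 6 markers were -0.03, 0.11 and -0.02, and 0 of 6 reached 1.5-fold on any array. CD3E changed by -0.06, 0.01 and -0.02 and COL1A1 by -0.40, 0.29 and -0.29. The part of these marker changes in the values of the 10 genes was not tested.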

How the data were processed

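Total RNA was hybridised by the authors to 3 dual-colour Agilent whole genome arrays, all on 1 slide. The deposited scanner files hold spot intensity as read by Feature Extraction, version 9.5.3.1 in the file headers (8.5.1.1 in the submitters' processing notes), with positions on GRCh37. The log ratio in the deposited files is a log10 value of red over green, turned here to log2 of treated over control. The authors' own table holds log2 ratios, loess normalized with limma and agilp. Its direction is not stated, and it was taken as treated over control from correlations of 0.867, 0.838 and 0.936 with the values computed here from the scanner files (column medians -0.01, 0 and -0.01), and its background step and centring remain unknown.

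Mean signals were corrected by normexp (offset 50, median local background) and normalized by loess within arrays in R 4.3.3 with limma 3.58.1, with data.table (1.17.8) and jsonlite (2.0.0) used for input. Control spots and spots marked as outliers (276, 111 and 89 gene spots on the decitabine, carboplatin and combination arrays) were left out. Spots of a probe were averaged, and the brightest probe stood for a gene. Of 41000 probes, 29381 were named through RefSeq and 29374 used, for 18611 genes, 7736 of them with several probes. Aquantile scaling gave channel levels. A gene was counted as changed at 1.5-fold, with no test.

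The 10 genes and all lists were chosen with earlier results of these data known. Named were the 10 genes with every probe, up to 4 genes of each list with the largest change on any array among probes above background and outside columns 1 to 9, and the 5 genes nearest to CDKN1A by Euclidean distance. MDM4, CHEK2, FOXM1, GADD45B, CCNA2, TOP2A, CCND3 and CDH1, and markers named for their presence, were chosen after their values were seen. Of gene spots, 69.0, 70.3 and 68.2 % were well above background in control cells and 65.8, 68.4 and 68.5 % in treated cells. Precision is limited by the number of arrays. A gene of the list of regulators is not reported here, and its counts were made without it. The procedure was tested on simulated data. Alternatives were the scanner's processed signals, median signals without background subtraction, median centring, the scanner's log ratio, the authors' values, leaving out columns 1 to 9, the median over probes, a 2-fold limit, a filter on dim probes and, chosen after seeing the data, the control channel averaged over the arrays and the ranking of genes nearest to CDKN1A under these settings.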

Additional observations from a re-analysis of the deposited data

How the results depend on the processing

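No paired analysis was possible because each treatment has 1 array. Over all settings tried, between 8 and 10, 1 and 4, and 8 and 9 of the 10 genes were at least 1.5-fold higher on the decitabine, carboplatin and combination arrays, and no called change turned its sign. The count with carboplatin was 4 as reported, 1 under median centring and 1 at a 2-fold limit, in both cases PLK3. CDKN1A ranged from 2.32 to 3.57, from 0.16 to 1.14 and from 2.34 to 3.15 on the 3 arrays over the settings, and its values with carboplatin were 0.16 in the authors' table and 0.18 against the averaged control. The counts of all genes moved more. On the array labelled decitabine, 1971 genes were higher as reported, 887 without columns 1 to 9, 1175 in the authors' values and 1169 at 2-fold; 870 were lower as reported, 2190 from processed signals, 4478 under median centring, 2119 from the scanner's log ratio and 195 at 2-fold. With carboplatin, 514 were higher as reported, 1412 from processed signals, 1674 under median centring, 1449 from the log ratio and 118 at 2-fold, and 278 were lower, against 1166, 3554 and 1141 in the same order of sources, 528 in the authors' values and 6 at 2-fold. With both drugs, 1390 were higher as reported, 2486 from processed signals, 807 under median centring, 2396 from the log ratio and 477 at 2-fold, and 1103 were lower, against 1992, 3985, 2099 and 256. Of the genes in the pathway lists, 11 were lower with decitabine as reported, 22 under median centring and 17 from the log ratio. With carboplatin 11 were higher, against 2 under median centring, and 2 were lower, against 17 under median centring and 1 by the median over probes. The cause of these movements was not tested. Of the values of single members under other settings, 32, 30 and 29 of 80 per array moved by more than the SD of repeated spots with the first 9 columns left out.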
